A study of Oryzias latipes with 10 samples.

Results

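The genes described here are *sox17*, *sox32*, *foxa2*, *foxd3*, *etv5a*, *eml2*, *lmo4a* and *ackr3a*, 8 of the 24365 genes in the count table. They are the symbols paired with Ensembl identifiers in the endoderm part of the study's source data on germ layer markers, which lists 10 genes. The other 2, *cxcr4a* and *nme4*, were at or near 0 reads. The RNA-seq libraries came from whole medaka (Oryzias latipes, a teleost fish) embryos at stage 16, which the study places in mid to late gastrulation. There were 3 libraries of *yap* double mutants (yap-/- yap1b-/-), 3 of *yap* single mutants (yap-/-) and 4 of WT embryos, in the iCab strain. The double mutants carry the same *yap* (*yap1*) deletion as the single mutants and a second deletion in the paralog *yap1b*. Each embryo was genotyped from its own DNA and RNA of equal genotype was then pooled, so that each library pools several embryos and a p-value measures the spread among pools only. The study describes the embryos of a sample as synchronized and as offspring of several random crosses, and whether pools of the same genotype came from different crosses is not given in the sources used here.

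Endoderm is the innermost germ layer and gives rise to the gut, liver, pancreas and pharyngeal lining. In zebrafish, Nodal signalling switches on the SoxF transcription factor gene *sox32* at the blastoderm margin, Sox32 in turn switches on *sox17*, and cells with both involute and migrate as a loose sheet towards the midline. Both SoxF genes are also expressed in the dorsal forerunner cells, which build the ciliated left-right organizer. The remaining genes of the panel are less specific in vertebrate embryos. *foxa2* is a forkhead factor of endoderm, axial mesoderm and floor plate, *foxd3* a forkhead factor of premigratory neural crest and pluripotent cells, and *etv5a* an ETS factor of the Pea3 group that responds to FGF. *ackr3a* encodes a scavenger receptor for the chemokine Cxcl12, *lmo4a* a LIM-only cofactor and *eml2* a microtubule-associated protein of the EMAP family. All values are from whole embryos, in which fewer cells of a type and less RNA per cell cannot be told apart.

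The libraries held 22053738 to 38383959 reads in genes. *yap1*, the targeted gene of both lines, had 2707, 3148 and 3356 normalized counts in the double mutants, 2657, 2993 and 2656 in the single mutants, 5470 in WT 4 and 9358, 9131 and 9028 in WT 1, 2 and 3. Normalized counts are raw counts scaled by TMM factors to a common library size. The double mutants had 846 to 955 normalized counts of *yap1b*, the single mutants 1856 to 2349 and the 4 WT libraries 2270 to 2704. The targeted genes were thus lowest in the genotypes that carry their deletions, and in *yap1* WT 4 stood between the mutants and the other WT libraries. WT 4 also stood apart over all genes, with a Pearson's r of log2 CPM to WT 1–3 of 0.951 to 0.952, where WT 1–3 had 0.989 to 0.990 among themselves. Its r to the double mutants was 0.958 to 0.970.

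For this reason each comparison below was fitted with terms for genotype and for a set of libraries. WT 1–3 and the single mutants form the first set, and WT 4 and the double mutants the second. No label gives these sets or calls them technical. In the model they take the place of the batches that the study removed with ComBat and did not name. They were read from the per-library levels in the study's germ layer marker tables, which hold the same 8 genes, so that a difference between WT 4 and WT 1–3 in them is not independent of how the sets were recognised. The same holds for the double mutants against WT 4 and for the single mutants against WT 1–3, since those levels placed each pair together. A small difference within either pair in these genes may be partly built in. Under this fit the reference of the single mutants is WT 1–3, and that of the double mutants is WT 4 by itself, whose variation is taken to equal that of the rest. For *yap1* it gave −1.73 (SE 0.11) in the single and −0.83 (SE 0.15) in the double mutants on the log2 scale. Their levels were similar, with 2656 to 2993 and 2707 to 3356 normalized counts. Against WT 1–3 without the set the double mutants had −1.58 (SE 0.11). Values of the double mutants thus depend on the level of WT 4. The levels of WT 1–3 and a fit against WT 1–3 without the set are therefore given beside the values of the double mutants for the 8 genes.

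*sox17* and *sox32* were detected in every library with 1066 to 2300 and 2041 to 4001 reads, and neither passed a test in the mutants. *sox17* had 1332, 1560 and 1770 normalized counts in the double mutants, 1772, 1795 and 1754 in the single mutants, 1429 in WT 4 and 1845, 1638 and 1787 in WT 1, 2 and 3. The single mutants lay within the range of WT 1–3, and the double mutants ran between a value below every WT library and one close to WT 3. *sox32* had 3175, 3232 and 2946 normalized counts in the double mutants, 3392, 3061 and 3287 in the single mutants, 2689 in WT 4 and 3071, 3093 and 2947 in WT 1, 2 and 3. WT 4 was the lowest library of all for this gene, and the mutant ranges overlapped that of WT 1–3. The highest library exceeded the lowest 1.39-fold for *sox17* and 1.26-fold for *sox32*, against a median of 2.20-fold over the 16334 tested genes with reads in every library. Of these genes 7.32% varied less than *sox17* and 2.19% varied less than *sox32*. They include genes with few reads, in which counting error widens this ratio, and genes of like abundance were not compared separately.

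The log2 fold change of *sox17* was 0.12 in the double mutants (95% interval −0.26 to 0.50) and 0.01 in the single mutants (−0.25 to 0.28). For *sox32* it was 0.21 in the double mutants (−0.09 to 0.51) and 0.10 in the single mutants (−0.11 to 0.31). The adjusted p-values from edgeR's quasi-likelihood test were 0.83 and 0.97 for *sox17* and 0.62 and 0.73 for *sox32*, in the double and the single mutants in that order. Measured against WT 1–3 without the set, the double mutants had −0.18 for *sox17* (−0.44 to 0.09, adjusted p = 0.25 from edgeR) and 0.04 for *sox32* (−0.17 to 0.25, adjusted p = 0.76 from edgeR). These intervals leave room for changes of up to about a log2 value of 0.51 in either SoxF gene, and the sign of *sox17* in the double mutants depends on which WT libraries are the reference. *sox17* lies on chromosome 20 from 20637876 to 20639379 in RefSeq's annotation of the medaka build ASM223467v1, and *sox32* had no match in that table.

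**Figure D1:**
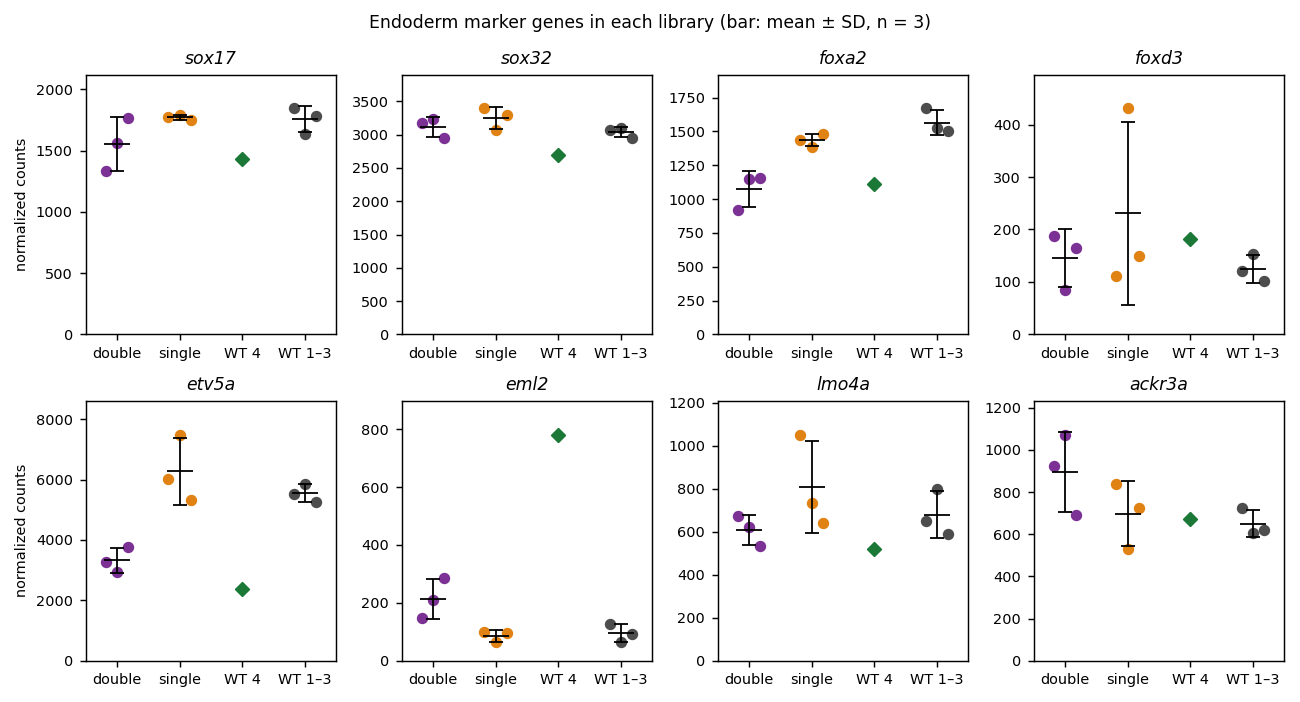
Normalized counts (vertical axes, from 0) of the 8 endoderm marker genes in each library, with double mutants, single mutants, WT 4 and WT 1–3 from left to right and bars for the mean ± SD of 3 libraries. *sox17* and *sox32* are nearly level across the groups, *etv5a* is lower in the double mutants and WT 4 than in the other libraries, *eml2* stands at 781 in WT 4 and at 285 or less elsewhere, and *foxd3* is high in 1 single mutant library (431).

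Because *sox32* acts upstream of *sox17* in zebrafish, their ratio was followed within each library. *sox17* made up 29.6%, 32.6% and 37.5% of the reads of both genes in the double mutants, 34.3%, 37.0% and 34.8% in the single mutants, 34.7% in WT 4 and 37.5%, 34.6% and 37.8% in WT 1, 2 and 3. Double mutants 1 and 2 lay below all other libraries and double mutant 3 lay among the highest, so that the group spanned more than the others. The exact 95% binomial interval was 28.1% to 31.0% for double mutant 1 and 36.1% to 39.0% for double mutant 3, and these intervals cover counting error only. The mean share was 33.2% ± 4.03 in the double mutants (SD, n = 3), 35.4% ± 1.41 in the single mutants (SD, n = 3) and 36.2% ± 1.72 in WT (SD, n = 4). The differences between the groups were smaller than the spread among the double mutants. The share also depends on the lengths of the transcripts and says nothing of which gene was more abundant in molecules.

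**Figure D2:**
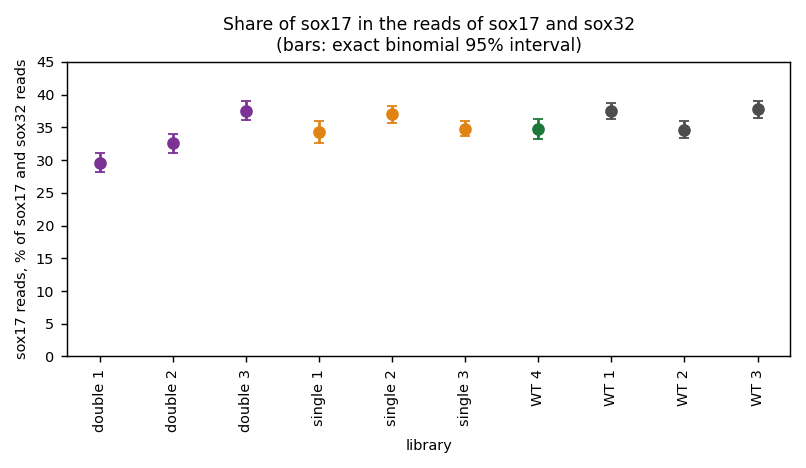
Share of *sox17* in the reads of *sox17* and *sox32* together (vertical axis, percent, from 0) in each of the 10 libraries, with exact binomial 95% intervals as bars. Double mutant 1 is lowest at 29.6%, and the other libraries lie between 32.6% and 37.8%.

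*foxa2* had lower values in the double mutants and WT 4 than in WT 1–3. It had 918, 1150 and 1153 normalized counts in the double mutants, 1438, 1388 and 1478 in the single mutants, 1110 in WT 4 and 1669, 1524 and 1501 in WT 1, 2 and 3. The double mutants lay on both sides of WT 4 and below each of WT 1–3, and the single mutants lay just below WT 1–3, where 20.6% of all genes did not overlap between those 2 groups. Against WT 4 the log2 fold change of *foxa2* in the double mutants was −0.05 (SE 0.16, adjusted p = 0.93 from edgeR). Against WT 1–3 without the set it was −0.54 (SE 0.12, adjusted p = 0.0059 from edgeR), and against all 4 WT libraries −0.43 (SE 0.15, adjusted p = 0.058 from edgeR). The single mutants had −0.13 (SE 0.12, adjusted p = 0.71 from edgeR). WT 4 differed from WT 1–3 by −0.50 (SE 0.17, adjusted p = 0.11 from edgeR), which passed the threshold with DESeq2 (−0.53, adjusted p = 0.026) and without double mutant 1 (−0.55, adjusted p = 0.049 from edgeR). *foxa2* lies on chromosome 22 from 16309203 to 16311320.

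Since *foxa2* also marks the notochord and floor plate, genes of axial mesoderm and floor plate were read beside it. Of a list of 10 genes 5 had a name in the study's tables. The 4 other than *foxa2* (*shha*, *tbxta*, *tbxtb* and *chrd*) summed to 6439 to 7195 normalized counts in the double mutants, 9207 to 11734 in the single mutants, 6175 in WT 4 and 9164 to 9530 in WT 1–3. Their sum was thus low in the same libraries as *foxa2*. Of all genes 62.6% did not overlap between the double mutants and WT 1–3, and 81.4% between WT 4 and WT 1–3. *tbxta* and *chrd* had the most counts in the sum, and *tbxtb* overlapped between the double mutants (387 to 600) and WT 1–3 (479 to 580). Of these genes *tbxta*, the Brachyury gene of notochord and tail bud, had 2087, 1748 and 2320 normalized counts in the double mutants, 2161 in WT 4 and 4128, 3990 and 3734 in WT 1, 2 and 3. With the set in the model 0 of the 5 passed the test in either mutant by edgeR, while an unadjusted p under 0.05 was reached by 0 and DESeq2 called 0. Against WT 1–3 without the set *tbxta* (−0.94, SE 0.14, adjusted p = 0.0012 from edgeR) was called lower in the double mutants, as *foxa2* was. So was *shha* (−0.47, SE 0.16, adjusted p = 0.037 from edgeR). That fit called 43.5% of all genes in the double mutants. *tbxtb* (−0.08) and *chrd* (−0.19) were not called (adjusted p = 0.73 and 0.23 from edgeR). Against all 4 WT libraries *tbxta* was also called (−0.77, SE 0.22, adjusted p = 0.032 from edgeR), where 24.1% of all genes were called. The part of axial tissue in the level of *foxa2* was not tested.

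*foxd3* was high in a single library. It had 188, 83.9 and 164 normalized counts in the double mutants, 111, 431 and 150.3 in the single mutants, 181 in WT 4 and 120.3, 154 and 102 in WT 1, 2 and 3. Single mutant 2 stood above all other libraries, and the remaining 9 overlapped between the genotypes. The log2 fold change was −0.32 in the double mutants (95% interval −1.84 to 1.20, adjusted p = 0.88 from edgeR) and 0.89 in the single mutants (−0.20 to 1.98, adjusted p = 0.56 from edgeR). Without single mutant 2 the value of the single mutants was 0.07 (adjusted p = 0.93 from edgeR), so that it rested on that library. The double mutants had 0.21 against WT 1–3 without the set (SE 0.49, adjusted p = 0.74 from edgeR), with the sign opposite to that against WT 4. Each library held only 67 to 489 reads of this gene, and the intervals are the widest of the panel in both mutants. *foxd3* lies on chromosome 4 from 16193378 to 16194574.

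Neural crest genes were read beside it, of which 5 of 11 listed had a name. *sox10*, a transcription factor of migrating crest, had 424 normalized counts in single mutant 2 and at most 271 in any other library. *pax3a*, a factor of the neural plate border, had 1744 in single mutant 2 and at most 1363 in any other library. The other 2 did not peak there. *snai1b*, a zinc finger factor of migrating crest and mesoderm, had 919 in single mutant 2, against 930 in WT 2 and 1038 in WT 4, and *tfap2a*, a factor of crest and non-neural ectoderm, had 6179 in it and 6406 to 8305 in the 4 WT libraries. With the set in the model 0 of the 5 crest genes passed the test in either mutant by edgeR, with 2 in the double and 0 in the single mutants at an unadjusted p under 0.05. Over all genes that share was 10.4% in the single mutants. It is not given here for the double mutants, so that their 2 cannot be called many or few. DESeq2 called 1 in the double mutants (*tfap2a*, −0.44, adjusted p = 0.030) and 0 in the single mutants. The 4 crest genes other than *foxd3*, of which *tfap2a* had the most counts, summed to 7790 to 8537 in the double mutants, 7775 to 9267 in the single mutants, against 8426 to 10762 in the 4 WT libraries. Thus 3 of the 5 had their highest value in single mutant 2, and the other 2 and the sum did not. The part of neural crest in the level of *foxd3* was not tested.

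*etv5a* was lower in the double mutants and WT 4 than in all other libraries. It had 3281, 2944 and 3767 normalized counts in the double mutants, 6006, 7486 and 5315 in the single mutants, 2382 in WT 4 and 5511, 5856 and 5269 in WT 1, 2 and 3. Within their set the double mutants lay above WT 4. *etv5a* is among the genes from whose levels the sets were read, so that this division is partly built into them. The log2 fold change of the double mutants was 0.48 against WT 4 (SE 0.21, 95% interval 0.01 to 0.96, adjusted p = 0.41 from edgeR). Against WT 1–3 without the set it had the opposite sign, −0.73 (SE 0.15, adjusted p = 0.0043 from edgeR), and against all 4 WT libraries it was −0.51 (SE 0.27, adjusted p = 0.17 from edgeR). The single mutants had 0.18 (SE 0.15, adjusted p = 0.69 from edgeR). WT 4 was below WT 1–3 by a log2 value of −1.22 (SE 0.22, adjusted p = 0.023 from edgeR), and this call was lost without WT 1, WT 2 or WT 3 (adjusted p = 0.072, 0.073 and 0.065 from edgeR). No statement on *etv5a* in the double mutants is therefore free of the choice of WT library.

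Of the FGF pathway and its targets, 5 of 21 listed genes had a name and 4 were tested. 0 passed the test in the double or the single mutants by edgeR and 0 with DESeq2, with 2 and 1 at an unadjusted p under 0.05. Of all genes 10.4% had such an unadjusted p in the single mutants. That share is not given here for the double mutants, so that their 2 cannot be called many or few. The receptor gene *fgfr4*, with the highest mean count of the others, had 3118, 3935 and 3899 normalized counts in the double mutants, 4118, 5621 and 4977 in the single mutants, 4581 in WT 4 and 6141, 5995 and 5922 in WT 1, 2 and 3. On the log2 scale it stood at −0.33 in the double mutants (SE 0.19, adjusted p = 0.59 from edgeR) and at −0.29 in the single mutants (SE 0.14, adjusted p = 0.50 from edgeR). *fgfr2*, another receptor gene, had log2 fold changes of −0.96 (SE 0.29, adjusted p = 0.16 from edgeR) and −0.50 (SE 0.21, adjusted p = 0.47 from edgeR). With the set in the model *etv5a* was above 0 in both mutants and these receptor genes below 0, without any of them passing the test. Both receptor genes passed the test as lower in the double mutants against WT 1–3 without the set, *fgfr4* at −0.72 (SE 0.14, adjusted p = 0.0037 from edgeR) and *fgfr2* at −0.80 (SE 0.21, adjusted p = 0.015 from edgeR), as *etv5a* was. The remaining tested receptor gene, *fgfr3*, was not called in that fit (−0.04, SE 0.22, adjusted p = 0.90 from edgeR), where 43.5% of all genes were called. Against all 4 WT libraries 24.1% of all genes were called in the double mutants. *fgfr4* (−0.63, adjusted p = 0.024 from edgeR) and *fgfr2* (−0.84, adjusted p = 0.022 from edgeR) were among them as lower. *fgfr3* was not (−0.17, adjusted p = 0.59 from edgeR).

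*eml2* varied most between libraries and had the log2 fold change of greatest size in the double mutants, while in the single mutants that of *foxd3* was greater. It had 149, 209 and 285 normalized counts in the double mutants, 98.1, 63.4 and 96.1 in the single mutants, 781 in WT 4 and 127, 65.0 and 92.5 in WT 1, 2 and 3. WT 4 stood above all other libraries, the double mutants came next, and the single mutants and WT 1–3 overlapped at the lowest level. The mean of the double mutants was 0.274 times the level of WT 4 and 2.26 times the mean of WT 1–3. Accordingly the test against WT 4 gave a lower level in the double mutants. The log2 fold change was −1.86 (SE 0.39, 95% interval −2.75 to −0.98, adjusted p = 0.043 from edgeR). Against WT 1–3 without the set the same libraries were higher, by 1.18 (SE 0.32, adjusted p = 0.016 from edgeR), and against all 4 WT libraries the value was −0.31 (SE 0.74, adjusted p = 0.77 from edgeR). The single mutants had −0.15 (SE 0.32, adjusted p = 0.87 from edgeR).

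The call of *eml2* in the double mutants was near the threshold with edgeR and further past it with DESeq2 (−1.84, adjusted p = 0.0027). With edgeR it was lost when double mutant 1 (−1.66, adjusted p = 0.087 from edgeR) or double mutant 2 (−1.84, adjusted p = 0.13 from edgeR) was left out. The same held when WT 1 (adjusted p = 0.054 from edgeR), WT 3 (0.084) or single mutant 3 (0.076) was left out, which kept the log2 fold change at −1.86. With each set fitted alone the adjusted p was 0.089 from edgeR. WT 4 exceeded WT 1–3 by a log2 value of 3.04 (SE 0.39, 95% interval 2.16 to 3.92, adjusted p = 0.0052 from edgeR), and 1.41% of the 16513 tested genes had a difference of greater size. The reads of *eml2* numbered 124 to 273 in the double mutants, 702 in WT 4 and 59 to 158 in the other libraries. The gene lies on chromosome 13 from 3914807 to 3947713.

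*lmo4a* and *ackr3a* showed no difference between mutants and WT that passed a test. *lmo4a* had 671, 619 and 533 normalized counts in the double mutants, 1050.4, 735 and 638 in the single mutants, 519 in WT 4 and 649, 800.1 and 588 in WT 1, 2 and 3. WT 4 was the lowest library and single mutant 1 the highest, and the groups of 3 libraries overlapped. Its log2 fold change was 0.23 in the double mutants (95% interval −0.42 to 0.87, adjusted p = 0.81 from edgeR) and 0.25 in the single mutants (−0.20 to 0.69, adjusted p = 0.68 from edgeR). The double mutants had the opposite sign against WT 1–3 without the set, −0.16 (SE 0.20, adjusted p = 0.54 from edgeR). *ackr3a* had 922, 1072 and 693 normalized counts in the double mutants, 838, 532 and 725 in the single mutants, 673 in WT 4 and 724, 607 and 621 in WT 1, 2 and 3. Here 2 double mutant libraries stood above all others and the third lay within the WT range. Its log2 fold change was 0.41 in the double mutants (−0.24 to 1.07, adjusted p = 0.68 from edgeR) and 0.10 in the single mutants (−0.35 to 0.55, adjusted p = 0.87 from edgeR). Of the 8 members *ackr3a* alone had a positive value of similar size whichever WT libraries were used, with 0.46 against WT 1–3 and 0.45 against all 4, which did not pass the threshold either (adjusted p = 0.089 and 0.092 from edgeR).

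*cxcr4a*, the signalling receptor for the same chemokine and a zebrafish endoderm marker, had 2 to 5 reads in the double mutants, 3 to 5 in the single mutants, against 4 to 10 in the WT libraries. It was below the filter of a mean of 10 reads and was not tested, and it and *ackr3a* were the only 2 of 6 listed genes of this chemokine axis with a name. *nme4* had 0 reads in all 10 libraries, where a count of 0 allows up to 3 reads per library. At this depth the panel therefore rested on 8 of its 10 genes.

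Across the panel, 1 of the 8 genes passed the test in the double mutants (*eml2*, lower), where 2.31% of all 16513 tested genes were called. In the single mutants 0 of 8 passed with edgeR, 0 had an unadjusted p under 0.05 and 0 passed with DESeq2. Of all genes 0.69% were called and 10.4% had an unadjusted p under 0.05 in this comparison. The median log2 fold change of the 8 genes was 0.17 in the double mutants and 0.10 in the single mutants, beside 0.01 and 0.02 over all tested genes. Compared with WT 1–3 without the set, 3 of 8 were called in the double mutants (*eml2* higher, *foxa2* and *etv5a* lower), where 43.5% of all genes were called. The panel was thus not called more often than genes at large under that choice. Against all 4 WT libraries 0 of 8 were called in the double mutants by edgeR, with *foxa2* and *ackr3a* at an unadjusted p under 0.05, where 24.1% of all genes were called and 42.8% had such an unadjusted p.

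**Figure D3:**
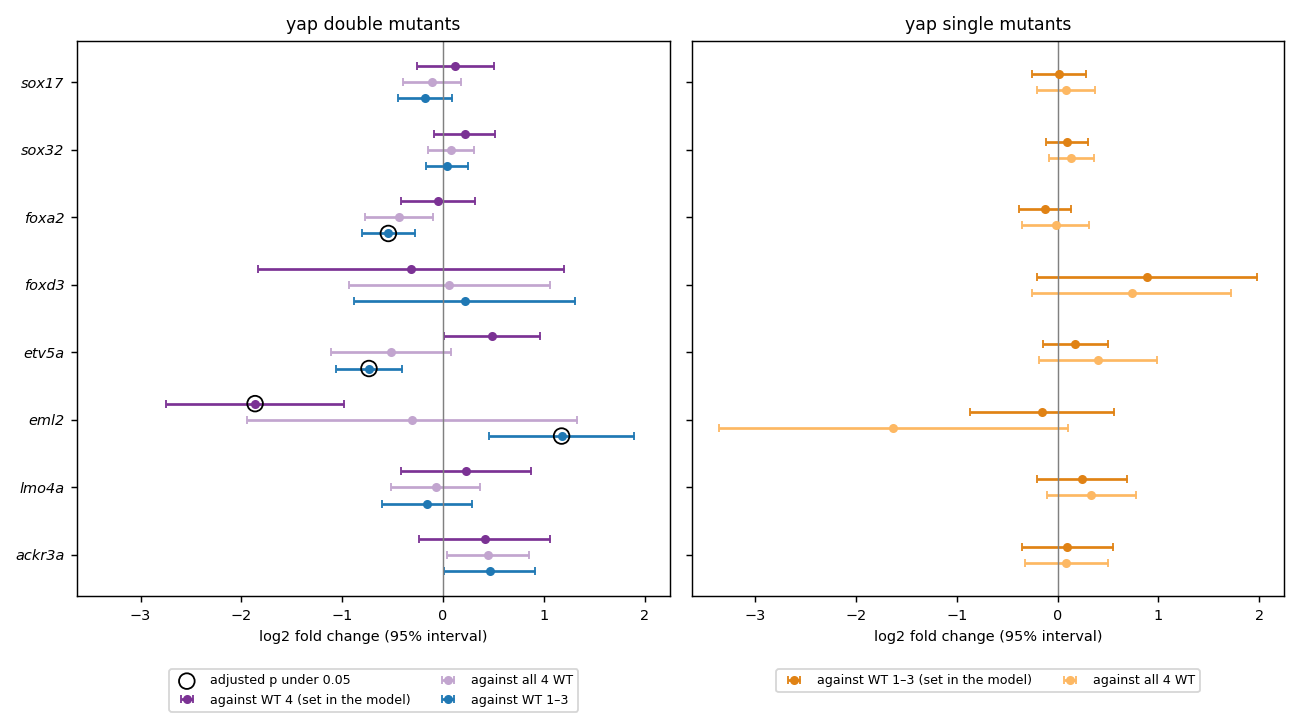
Log2 fold change (horizontal axis) with its 95% interval for each gene in the double mutants (left) and the single mutants (right), by the WT libraries used, with circles around values of adjusted p under 0.05 from edgeR. For *eml2* the double mutants stand at −1.86 against WT 4 and at 1.18 against WT 1–3, for *etv5a* at 0.48 and −0.73, and *sox17* and *sox32* stay between −0.18 and 0.21.

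The ranges of the libraries gave the same picture. All 3 double mutant libraries lay above WT 4 for *sox32*, *etv5a*, *lmo4a* and *ackr3a* and below it for *eml2*, where 55.7% of all genes did not overlap. Against WT 1–3 they lay above for *eml2* and below for *foxa2* and *etv5a*, where 62.6% of all genes did not overlap. Against all 4 WT libraries 0 of the 8 genes stood apart in the double mutants, where 31.9% of all genes did, and 0 in the single mutants, where 9.5% did. WT 4 lay above WT 1–3 for *foxd3* and *eml2* and below for *sox17*, *sox32*, *foxa2*, *etv5a* and *lmo4a*, where 81.4% of all genes did not overlap. WT 4 met Dixon's criterion for an outlying value among 4 in 2 of the 8 (*etv5a* and *eml2*), where it did in 14.8% of all genes. Neither this count nor the test that follows is independent of the sets, which were read from levels that include these 8 genes. By the test, 2 of 8 differed between WT 4 and WT 1–3 (*eml2* higher, *etv5a* lower), where 5.61% of all genes were called, and the median over the 8 was −0.24 beside 0.05 over all genes.

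Whether the double mutants differed from the single mutants cannot be read within a set, since no set holds both. The difference of their log2 fold changes passed the test for 0 of 8 genes by edgeR and 0 by DESeq2, with *eml2* at an unadjusted p under 0.05 (−1.71, SE 0.52, adjusted p = 0.56 from edgeR), where 0.0303% of all genes were called and 4.61% had such an unadjusted p. Compared directly, the double mutants lay above the single mutants for *eml2* and below for *foxa2* and *etv5a*, where 35.8% of all genes did not overlap. Without WT 4 and the set, the double minus the single mutants was 1.33 for *eml2* (adjusted p = 0.018 from edgeR), −0.91 for *etv5a* (adjusted p = 0.0041 from edgeR) and −0.42 for *foxa2* (adjusted p = 0.030 from edgeR), where 24.7% of all genes were called. In that comparison genotype and set cannot be told apart. The summed normalized counts of the 8 genes ran from 10636 to 11311 in the double mutants and from 13443 to 15491 in the single mutants, with 9765 in WT 4 and 12908 to 13737 in WT 1–3. Without *etv5a* the double mutants summed to 7355 to 7926, the single mutants to 8005 to 8699, WT 4 to 7383 and WT 1–3 to 7638 to 8205, so that *etv5a* carried most of the gap between the sets, which *eml2*, higher in the second set, made smaller.

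Beyond the panel, endoderm genes from a list of 16 had 7 matches, of which 6 were tested, *sox17*, *sox32* and *foxa2* among them. 0 of 6 passed the test in the double or the single mutants by edgeR, with 1 and 2 at an unadjusted p under 0.05, and DESeq2 called 1 in the double (*vgll4l*) and 0 in the single mutants. Of all genes 10.4% had such an unadjusted p in the single mutants, and that share is not given here for the double mutants. The 4 matches outside the panel (*gata5*, *gata6*, *vgll4l* and *cxcr4a*), of which *gata6* had the most counts, summed to 3668 to 4356 normalized counts in the double mutants, 4881 to 5389 in the single mutants, against 6097 to 7031 across the 4 WT libraries. Every mutant library was below every WT library in this sum. Of all genes 31.9% did not overlap between the double mutants and the 4 WT libraries. Between the single mutants and the 4 WT libraries 9.5% did not overlap. Most names came from genes the study called, so that this gap is not independent evidence of a direction. *gata5*, a zinc finger factor that acts with Nodal upstream of *sox32* in zebrafish, had 1291, 1065 and 1175 normalized counts in the double mutants, 1341, 1288 and 1324 in the single mutants, 1193 in WT 4 and 1624, 1445 and 1271 in WT 1, 2 and 3. Its values overlapped between the genotypes (log2 fold changes −0.02, SE 0.17, and −0.13, SE 0.12). *gata6*, its relative in endoderm and the yolk syncytial layer, had 1708, 1635 and 2600 in the double mutants, 2418, 3355 and 2717 in the single mutants, 2934 in WT 4 and 3951, 3977 and 3497 in WT 1, 2 and 3. All 3 double mutant libraries lay below the 4 WT libraries for *gata6*, where 31.9% of all genes did not overlap. With the set in the model, against WT 4, the log2 fold change was −0.57 and did not pass the test (SE 0.26, adjusted p = 0.45 from edgeR). Against all 4 WT libraries *gata6* was called lower (−0.86, SE 0.20, adjusted p = 0.019 from edgeR), where 24.1% of all genes were called. It passed the test as lower against WT 1–3 without the set (−0.94, SE 0.19, adjusted p = 0.0047 from edgeR), where 43.5% of all genes were called.

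*vgll4l*, a vestigial-like cofactor that is needed for forerunner cells in zebrafish, had 931, 962 and 579 normalized counts in the double mutants, 1163, 742 and 835 in the single mutants, 1994 in WT 4 and 1454, 1324 and 1321 in WT 1, 2 and 3. Every mutant library lay below every WT library, where 31.9% of all genes did not overlap for the double and 9.5% for the single mutants. On the log2 scale *vgll4l* stood at −1.28 in the double mutants (SE 0.29, adjusted p = 0.055 from edgeR) and at −0.58 in the single mutants (SE 0.22, adjusted p = 0.39 from edgeR), past the threshold in neither. DESeq2 called it in the double mutants (−1.25, adjusted p = 0.0067), and so did edgeR against WT 1–3 without the set (−0.73, SE 0.22, adjusted p = 0.023). The latter fit called 43.5% of all genes. Against all 4 WT libraries *vgll4l* was called lower as well (−0.89, SE 0.23, adjusted p = 0.028 from edgeR), where 24.1% of all genes were called. The forerunner cell list had 2 matches of 11, *lrrc6* and *spaca4l*. With the set in the model *lrrc6* passed no test in the mutants. Against WT 1–3 without the set, where 43.5% of all genes were called, it was called lower in the double mutants (−0.97, SE 0.34, adjusted p = 0.042 from edgeR). *spaca4l* had 63.6, 122.5 and 84.5 normalized counts in the double mutants, 63.2, 54.6 and 55.9 in the single mutants, 312.5 in WT 4 and 101.9, 85.4 and 100.6 in WT 1, 2 and 3. As for *eml2*, WT 4 stood far above the rest, and the fall of *spaca4l* in the double mutants (−1.79, SE 0.32, adjusted p = 0.020 from edgeR) was measured from it. The call was lost without double mutant 3 (adjusted p = 0.052 from edgeR), and against WT 1–3 the value was −0.09 (adjusted p = 0.79 from edgeR).

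Of the Nodal pathway 3 of 21 listed genes had a name. By edgeR 1 of the 3 passed the test in the double and 0 in the single mutants, with 2 and 3 at an unadjusted p under 0.05, and DESeq2 called 1 in each (*bmp7a*). Of all genes edgeR called 2.31% in the double and 0.69% in the single mutants. An unadjusted p under 0.05 was reached by 10.4% in the single mutants, and that share is not given here for the double mutants. *gdf3*, which encodes the Vg1 partner of Nodal ligands, had 304, 318 and 417 normalized counts in the double mutants, 816, 571 and 544 in the single mutants, 535 in WT 4 and 923, 1126 and 957 in WT 1, 2 and 3. The double mutants lay below all other libraries, where 31.9% of all genes did not overlap with the 4 WT libraries and 35.8% with the single mutants. With the set in the model *gdf3* did not pass the test (log2 fold changes −0.63, SE 0.26, and −0.64, SE 0.19, in the double and the single mutants in that order). It was called lower in the double mutants against WT 1–3 without the set (−1.53, SE 0.19, adjusted p = 0.00074 from edgeR), where 43.5% of all genes were called. Against all 4 WT libraries *gdf3* was also called lower (−1.35, SE 0.26, adjusted p = 0.011 from edgeR), where 24.1% of all genes were called. *foxh1*, which encodes a forkhead partner of Smads in Nodal signalling, had 46.8, 70.3 and 75.1 in the double mutants, 34.9, 64.3 and 64.9 in the single mutants, 79.0 in WT 4 and 107, 88.1 and 109 in WT 1, 2 and 3. Every mutant library was below every WT library, where 31.9% of all genes did not overlap for the double and 9.5% for the single mutants. *foxh1* passed no test (−0.30, SE 0.40, adjusted p = 0.82, in the double mutants and −0.87, SE 0.28, adjusted p = 0.32, in the single mutants, both from edgeR). *bmp7a*, a BMP ligand entered in the list as a TGF-beta family member and not a Nodal gene, had 1136, 961 and 836 in the double mutants, 1346, 926 and 996 in the single mutants, against 1882 to 1950 across the 4 WT libraries, which were nearly equal. It was lower in the double mutants (log2 fold change −0.996, SE 0.22, adjusted p = 0.049 from edgeR) and had −0.80 in the single mutants (SE 0.16, adjusted p = 0.070 from edgeR, called with DESeq2). In the double mutants 6 of 9 fits with 1 library left out lost it (double mutant 2 or 3, adjusted p = 0.14 and 0.091 from edgeR, single mutant 3, 0.079, or any of WT 1–3, 0.096 to 0.099). It was also lost with each set fitted alone and with DESeq2's size factors in edgeR. It was kept at a similar log2 fold change by DESeq2 (−0.97, adjusted p = 0.0058), against WT 1–3 without the set (−0.96, adjusted p = 0.0022 from edgeR) and against all 4 WT libraries (−0.97, adjusted p = 0.0047 from edgeR). Most names in these tables belong to genes the study called, so that the counts of the lists are not independent evidence of a direction.

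The genes whose profile over the 10 libraries was most like that of *sox17*, *etv5a* and *eml2* were sought among 1841 tested genes with a symbol and a mean of at least 50 normalized counts. Symbols came from the study's tables, mostly for genes the study called. Likeness to genes that differ between these libraries is thus partly built in. For *sox17* they were *nol4la* (Pearson's r of log2 CPM 0.91), *ntn2* (0.88) and the paraxial protocadherin gene *pcdh8* (0.87). For *etv5a* they were the extracellular matrix gene *tnc* (0.95), *bicc1a* (0.95) and the anterior homeobox gene *otx2b* (0.94). For *eml2* they were *si:dkey-17e16.9* (0.96), *DOCK2* (0.94) and *zgc:174164* (0.93). The libraries share genotype and set, and these values describe likeness only. *pcdh8* was low in double mutants 1 to 3 with 138, 211 and 351 normalized counts and in WT 4 with 171, where the remaining libraries had 572 to 842. *si:dkey-17e16.9* had 1442 to 1922 normalized counts in the double mutants, 595 to 1222 in the single mutants, 4365 in WT 4 and 626 to 906 in WT 1–3, with WT 4 highest and the double mutants next, as for *eml2*. By Spearman's rho the gene most like *sox17* was another, *erfl3* (0.83), and the leading genes of *etv5a* and *eml2* were again *tnc* (0.94) and *si:dkey-17e16.9* (0.98).

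**Figure D4:**
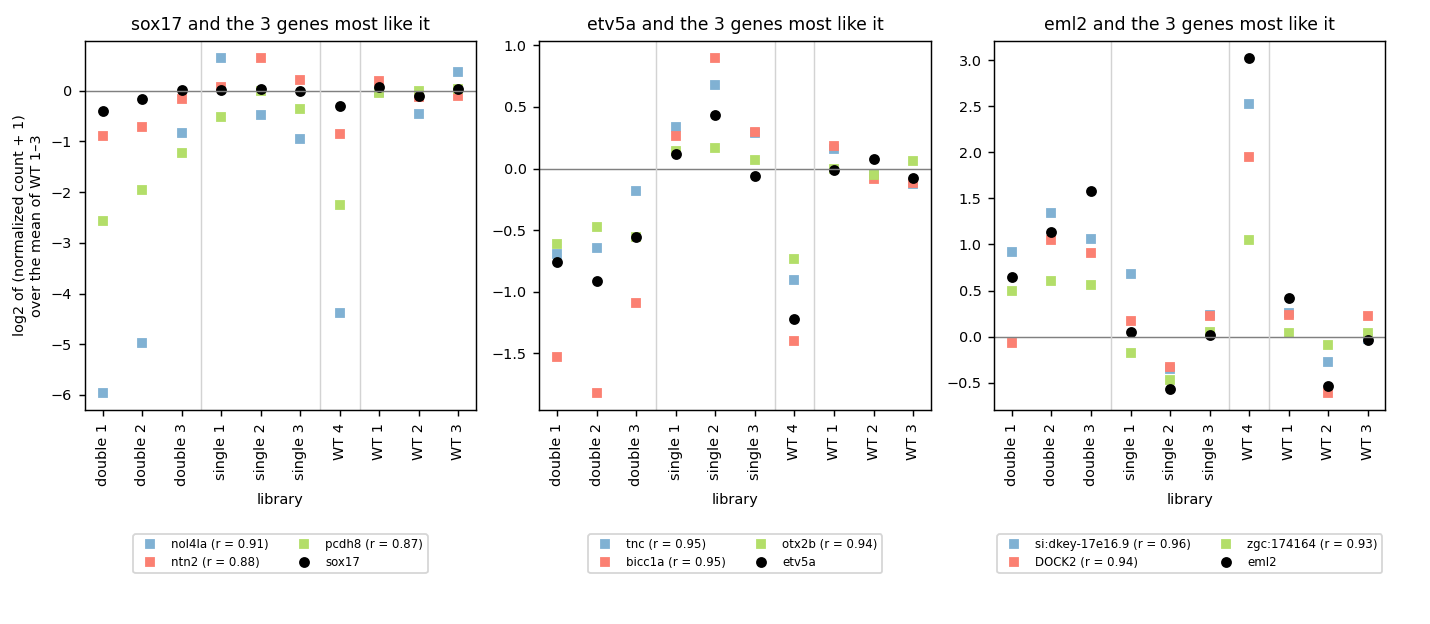
Log2 of the normalized count plus 1 over the mean of WT 1–3 (vertical axis) in each library for *sox17*, *etv5a* and *eml2* (black circles) and the 3 genes with the highest Pearson's r to each (coloured squares). The profile of *sox17* spans far less than those of its nearest genes, that of *etv5a* is low in the double mutants and WT 4, and that of *eml2* is highest in WT 4.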

How the data were processed

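RNA was sequenced from pools of stage 16 embryos. The authors trimmed reads with Trimmomatic 0.39, removed ribosomal reads with sortmerna 2.1, mapped with HISAT2 2.1 and counted reads per gene with HTSeq on the Ensembl 99 annotation. The strand setting is not given in the sources used here. The deposited values are these raw counts, without normalization or correction of batches. Reads in no gene were 10.6% to 11.3% and ambiguous reads 7.94% to 9.86% of those counted, and both were left out.

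Genes averaging 10 or more reads per library, 16513 in number, entered edgeR 4.0.16 (R 4.3.3) with TMM normalization, a quasi-likelihood model that held set and genotype, and Benjamini-Hochberg adjustment over all of them. A gene was called at an adjusted p under 0.05. Log2 CPM used a prior count of 2. All 8 members passed the filter. Tested on simulated data with changes of 1 on the log2 scale, the model recovered 55 of 100 changed genes in the single mutants (16409 genes) and 15 of 100 in the double mutants (16418 genes). With changes of 2 it recovered 97 and 83 of 100. Among the unchanged genes 14 and 7 were called, in the single and the double mutants in that order. Changes were placed only in genes with a mean count well above the filter. No difference between the sets was simulated, so that recovery in its presence was not tested.

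Alternatives were the model without the set, the model without WT 4, each set alone, a replicate block, DESeq2 1.42.0, its size factors in edgeR, other filters and leaving out each library. Gene names came from the study's tables (2212 identifiers) and coordinates from RefSeq. Of the members, *sox17*, *foxa2* and *foxd3* were matched there by symbol and *eml2* by gene identifier. The genes named are the 8 members, *cxcr4a*, *nme4*, *yap1*, *yap1b*, the called and up to 2 most abundant genes of each list and the genes most like 3 members. *gata5*, *vgll4l*, *sox10*, *shha*, *tbxtb*, *fgfr2*, *fgfr3*, *snai1b* and *foxh1* were named after their values were seen. Members and lists were chosen with earlier results of these data known.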

Additional observations from a re-analysis of the deposited data

Results flagged for a closer look

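In 3 genes WT 4 lay further from the other WT libraries than Dixon's criterion allows for a group of 4. Chance raises such a flag for any of the 4 libraries in about 1 in 20 groups, and for WT 4 in particular less often. WT 4 met the criterion in 14.8% of all 16513 tested genes, and the levels of *etv5a* and *eml2* were among those from which the sets of libraries were read. *etv5a* had 2382 normalized counts in WT 4 and 5269 to 5856 in WT 1–3. *eml2* had 781 in WT 4 and 65.0 to 127 in WT 1–3. *yap1* had 5470 in WT 4 and 9028 to 9358 in WT 1–3, and no label explains the position of this library.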

How the results depend on the processing

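Of 640 log2 fold changes of the 8 members, *yap1* and *yap1b* under other settings, 561 kept their sign and their side of the threshold, 49 changed sign, 20 lost a call and 10 gained one. All members' values kept both with no filter and with a filter of 1 CPM in 3 libraries.

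The reference decided the double mutants. Without the set, 0 members and 3982 of all genes were called, and *sox17* (−0.11), *foxd3* (0.063), *etv5a* (−0.51) and *lmo4a* (−0.074) changed sign. Against WT 1–3 alone, 3 members and 7182 genes were called, and *sox17* (−0.18), *foxd3* (0.21), *etv5a* (−0.73), *eml2* (1.18) and *lmo4a* (−0.16) changed sign. With each set alone 0 members and 90 genes were called. For double minus single mutants, the model without the set called 317 genes and turned *sox17* (−0.19), *sox32* (−0.0583), *foxa2* (−0.42), *etv5a* (−0.91) and *eml2* (1.32). Without WT 4 it called 3 members and 4081 genes and turned *sox17* (−0.19), *sox32* (−0.0577), *foxa2* (−0.42), *etv5a* (−0.91) and *eml2* (1.33).

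Replicate numbers are not said to pair libraries. Deviations of equally numbered libraries correlated across genes at −0.028 to 0.194 between WT and single mutants, −0.062 to 0.071 between WT and double mutants and 0.019 to 0.490 between the mutants. Those of unequally numbered libraries correlated at −0.216 to 0.144, −0.131 to 0.164 and −0.414 to 0.355 in the same order. With a replicate block in place of the set, which leaves WT 4 without a partner, 3 members and 7495 genes were called in the double mutants, with *sox17* at −0.18, *foxd3* at 0.31, *etv5a* at −0.73, *eml2* at 1.20 and *lmo4a* at −0.16. For double minus single mutants the block gave 3 members and 4398 genes, with *sox17* at −0.20, *sox32* at −0.0588, *foxa2* at −0.42, *etv5a* at −0.90 and *eml2* at 1.35.

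DESeq2 called 441 genes in the single mutants, 731 in the double mutants, 141 between the mutants and 2317 in WT 4. *lmo4a* for double minus single mutants was 0.011 with DESeq2 and with its size factors in edgeR. The CPM filter left 2 genes between the mutants. Leaving out 1 library gave 0 to 1 members called in the double mutants and 1 to 3 in WT 4. Over all genes it gave 26 to 172 in the single mutants, 213 to 574 in the double mutants, 0 to 15 between the mutants and 128 to 1923 in WT 4. Signs turned near 0 when a library was left out for *eml2* (−0.36 to 0.12), *sox17* (−0.035 to 0.049), *lmo4a* (−0.0025 to 0.39) and *ackr3a* (−0.069 to 0.26) in the single mutants. They also turned for *foxa2* in the double mutants (−0.093 to 0.054), *lmo4a* between the mutants (−0.17 to 0.24) and *ackr3a* in WT 4 (−0.0089 to 0.13). By Spearman's rho the gene most like *sox17* had 0.83. The cause of these changes was not tested. With WT 4 as the only WT library of its set, no fit without it compares the double mutants within their set.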

Other observations

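Other lists had few named genes. In the yolk syncytial layer list, 2 of 11 matched, and *slc26a1* had 1634, 3334 and 2271 normalized counts in the double mutants, 1200, 1808 and 2546 in the single mutants, 2748 in WT 4 and 3185, 2555 and 3180 in WT 1, 2 and 3. It passed no test, and its double mutant libraries spanned those of WT.

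In the prechordal plate list, 2 of 9 matched. *gsc*, the homeobox gene of the organizer, had 1097, 1037 and 1138 normalized counts in the double mutants, 1983, 1430 and 1642 in the single mutants, 1091 in WT 4 and 1661, 2056 and 1659 in WT 1, 2 and 3. *otx2b* was below WT 1–3 in WT 4 (log2 fold change −0.73, SE 0.14, adjusted p = 0.026 from edgeR), and the call was lost without WT 1, WT 2 or WT 3 (adjusted p = 0.079, 0.078 and 0.090 from edgeR). Both genes were low in the double mutants and WT 4 together, as *foxa2* and *etv5a* were. Of all genes 62.6% did not overlap between the double mutants and WT 1–3, and 81.4% between WT 4 and WT 1–3. With the set in the model neither passed the test in the double mutants by edgeR (*gsc* −0.0005, SE 0.20, and *otx2b* 0.19, SE 0.14). Against WT 1–3 without the set both were called lower by edgeR (*gsc* −0.72, SE 0.14, adjusted p = 0.0043, and *otx2b* −0.55, SE 0.096, adjusted p = 0.0026). That fit called 43.5% of all genes in the double mutants. The study used *gsc* as an endodermal marker in its in situ hybridization and listed it with the mesoderm genes in its source data on germ layer markers. *tbxta* also differed in WT 4 (−0.87, SE 0.20, adjusted p = 0.042 from edgeR), a call lost without WT 1, WT 2, WT 3 or single mutant 3 (adjusted p of up to 0.11 from edgeR).

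In the pluripotency list, 2 of 9 matched, *foxd3* and *sox3*, a neural and early embryonic SoxB1 gene. *sox3* had 9630, 8029 and 7780 normalized counts in the double mutants, 7916, 6705 and 6572 in the single mutants, 7195 in WT 4 and 5713, 5499 and 6193 in WT 1, 2 and 3. All double mutant libraries exceeded the 4 WT libraries, where 31.9% of all genes did not overlap in either direction. *sox3* passed no test with the set in the model (log2 fold change 0.24, SE 0.18, adjusted p = 0.70 from edgeR). Against all 4 WT libraries it was called higher (0.46, SE 0.14, adjusted p = 0.036 from edgeR), where 24.1% of all genes were called. It was higher by 0.55 against WT 1–3 without the set (SE 0.12, adjusted p = 0.0074 from edgeR), where 43.5% of all genes were called. *gapdh*, the single match of 7 genes listed as proxies of cell number, had 20471, 19931 and 17009 normalized counts in the double mutants, 15172, 8548 and 9318 in the single mutants, 12670 in WT 4 and 9056, 10913 and 7463 in WT 1, 2 and 3. All double mutant libraries exceeded all others in *gapdh*. Normalized counts are scaled to a common library size, so that these values do not measure the number of cells. Of all genes 31.9% did not overlap with the 4 WT libraries and 35.8% with the single mutants, in either direction. The log2 fold change of 0.59 against WT 4 did not pass the test (SE 0.33, adjusted p = 0.56 from edgeR). That of 1.07 against WT 1–3 without the set did (SE 0.23, adjusted p = 0.0056 from edgeR), where 43.5% of all genes were called. Against all 4 WT libraries *gapdh* was also called higher (0.93, SE 0.23, adjusted p = 0.022 from edgeR), where 24.1% of all genes were called.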
